A study of Homo sapiens with 6 samples.

Results

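The replication-dependent histone genes encode the linker histone H1 and the core histones H2A, H2B, H3 and H4 that package newly made DNA. They were taken by current gene symbol, as H1-1 to H1-6 or as a symbol that starts with H2AC, H2BC, H3C or H4C followed by a number, which gave 70 of the 20263 genes in the table. The set holds 6 H1, 17 H2A, 19 H2B, 13 H3 and 15 H4 genes. On GRCh38, 55 of them lie on chromosome 6 and 13 on chromosome 1, and 2 others match the rule by name alone, H4C16 on chromosome 12 and H2BC12L on chromosome 21.

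RNA sequencing was done on total RNA of cells labelled LNCaP, an established line from human prostate cancer that the labels describe as hormone-dependent. The labels put 3 libraries in an empty vector control group and 3 in a group with a vector for overexpression of the long non-coding RNA LINC01518. The series design text names MEG3, another long non-coding RNA, in its place, and the insert was not analysed here, so the groups are called by the sample labels. No label tells separate cultures from repeat preparations, or a transient from a stable vector. The p-values therefore reflect only how far these 6 libraries scatter, and that scatter may be technical.

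Cells transcribe these genes mainly in S phase, when DNA is copied, under the coactivator NPAT. Their short, mostly intronless transcripts usually end just after a conserved stem-loop instead of a poly(A) tail, and the stem-loop binding protein SLBP holds that structure through processing and translation. A library made by poly(A) selection therefore captures such mRNA poorly, and how RNA was selected for these libraries is not given in the sources used here. Histone variant genes such as H3-3A, H3-3B and H2AZ1 are expressed outside S phase from polyadenylated mRNA.

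The stem-loop is shown because it sets these transcripts apart from other mRNA. Of the 70 genes, 31 had at least 60 annotated bases after the stop codon in GENCODE release 29, and 30 of the 31 held the searched stem-loop pattern within the first 100 of those bases, on the transcript strand. The exception was H2BC11. The same search found the pattern in 2 of 19059 other protein-coding genes, or 0.0105%, and these were the histone genes H3-4 and H2AX. The core started 24 to 68 bases after the stop codon. In the lines that follow, each 16-base core is written 5′ to 3′ as DNA, with both arms of the stem in capitals and the 4-base loop in lower case.
Core of 17 genes, among them H2AC18, H2AC19, H2BC8, H2BC18, H2BC21 and H3C10: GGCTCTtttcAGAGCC
Core of H4C2, H4C5, H4C8 and H4C16: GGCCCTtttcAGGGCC
Core of H2BC4, H2BC5, H2BC7 and H3C8: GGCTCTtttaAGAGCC
Core of H4C9, H4C14 and H4C15: GGCCCTttttAGGGCC
Core of H3C6: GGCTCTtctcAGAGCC
Core of H2AC11: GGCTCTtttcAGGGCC
The H4 genes in this set carried the GGCCCT arm and the H2B and H3 genes the GGCTCT arm, and H2AC11 combined GGCTCT with AGGGCC.

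Reads of these genes can fall on more than 1 copy. Only their coding sequences were searched, so stretches outside them are not covered. Of the 70 genes, 48 shared no coding stretch of 100 bases with a transcript of another annotated gene. For 15 genes over 50% of such stretches were shared, and for 10 all of them were. With stretches of 50 bases, 32 genes shared none and 18 shared over 50%. At the protein level 14 of the 15 H4 genes encode the same protein, as do 10 of the 13 H3 genes, while the H2A genes encode 11 proteins and the H2B genes 15. The H4 coding sequences still differ, as their first 60 coding bases show, with capitals marking bases that differ from H4C14.
H4C14: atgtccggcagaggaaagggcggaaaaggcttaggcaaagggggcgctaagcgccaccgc
H4C15: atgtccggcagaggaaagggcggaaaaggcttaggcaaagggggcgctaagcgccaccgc
H4C9: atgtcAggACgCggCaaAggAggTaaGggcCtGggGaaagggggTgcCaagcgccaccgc
H4C8: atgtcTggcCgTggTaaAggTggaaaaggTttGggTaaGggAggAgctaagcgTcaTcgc
H4C16: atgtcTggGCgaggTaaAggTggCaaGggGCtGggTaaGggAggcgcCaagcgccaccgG
H4C15 did not differ from H4C14 in its 312 coding bases, whereas H4C9, H4C8 and H4C16 differed at 46, 53 and 61 of them. The counts of identical copies behaved in different ways. H2AC18 and H2AC19 have the same coding sequence and differed by only 1 to 6 counts per library, although a random division of their reads would give differences with an SD of 28.5 to 33.4 counts. H3C14 and H3C15 differed by 0 to 3 counts. These near-equal counts cannot be read as independent measurements, and both pairs are uncertain as single genes. H4C14 and H4C15 differed by 83 to 352 counts per library, and each overlaps an H3 gene on the other strand, H3C14 and H3C15 respectively.

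Total counts per library lay between 38161544 and 42553688, and the 70 genes took 0.0183% to 0.0228% of them. A count of 0 allowed up to 3 counts, or 0.0703 to 0.0794 CPM (counts scaled to library size by TMM), for counting error only. Over all genes, 69.8% of the values from 1 to 10 counts were even, against 49.9% of those from 51 to 100, so low counts are coarser than their size shows. The prostate homeobox gene HOXB13 held 257 to 345 counts, whereas 6 of 12 luminal prostate markers (KLK2, KLK3, KLK4, TMPRSS2, FOLH1 and TRPM8), which LNCaP cells are known for, were at 0 counts in all 6 libraries. The cells are therefore called by their label only.

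In these libraries the histone mRNA came from a few genes. H2BC12 held 178.8 TPM (a level scaled to transcript length and library, as a mean of 6 libraries), which was 71.7% of the H2B total. H1-2 held 98.9% of the H1 total at 89.6 TPM. Within H2A, the copies H2AC18 and H2AC19 held 29.7% and 29.02% at 41.9 and 40.95 TPM. The H4 total was carried mainly by H4C14 (32.8%) and H4C15 (29.4%). H3 was the lowest class of core histones, with H3C4 at 7.42 TPM and H3C10 at 5.96 TPM making up 30.3% and 24.3% of it. TPM depends on annotated length, and H2BC12 and H3C4 have no annotated bases after the stop codon. In mean CPM, H3C10 (3.78) and H3C8 (1.62) lay above H3C4 (1.57). H2BC12 stayed the highest H2B gene at 34.8 CPM, followed by H2BC21 at 12.2 CPM. H3C4 shares all of its 100-base coding stretches with ENSG00000282988, an overlapping gene on the same strand, so its level is uncertain.

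Many of the other genes were at or near the limit of detection. H2AC1, H2AC15, H2BC1, H2BC3, H3C11 and H4C6 had 0 counts in all 6 libraries, and 13 genes, these 6 included, had at most 3 counts in any library. H2AC15 lies within the span of H2BC15 on the other strand, and the strand setting is not given, so its 0 is uncertain as a level. H2AC7, with 2 to 6 counts, shares 97.6% of its 100-base coding stretches with ENSG00000282988 on the same strand, so its level is also uncertain. The filter on low counts kept 40 of the 70 genes, namely 1 H1, 8 H2A, 14 H2B, 9 H3 and 8 H4 genes, and none of the 30 left out exceeded 14 counts in a library. H1-4, the second gene of the H1 class, had 4, 14 and 7 counts with the empty vector and 6, 2 and 9 with overexpression, and was not tested.

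Detection went with the annotated 3′ end. The 25 genes with over 200 annotated bases after the stop codon, a length that reaches past the stem-loop, all passed the filter and had a median of 4.36 TPM, with a range of 0.382 to 22.3. Of the 45 genes with a shorter annotated end 15 passed, and their median was 0.426 TPM. That group nevertheless held the 4 genes with the highest TPM, H2BC12, H1-2, H2AC18 and H2AC19. By mean CPM H2BC12 and H1-2 were also the highest, but H4C15, H2BC21 and H4C14, with long ends, lay above H2AC18 and H2AC19. A long annotated end was thus not needed for a high level. TPM depends on the annotated length, which differs between these groups of genes. The filter acts on counts, which also depend on the length counted, and the part of length in passing it was not tested.

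**Figure D1:**
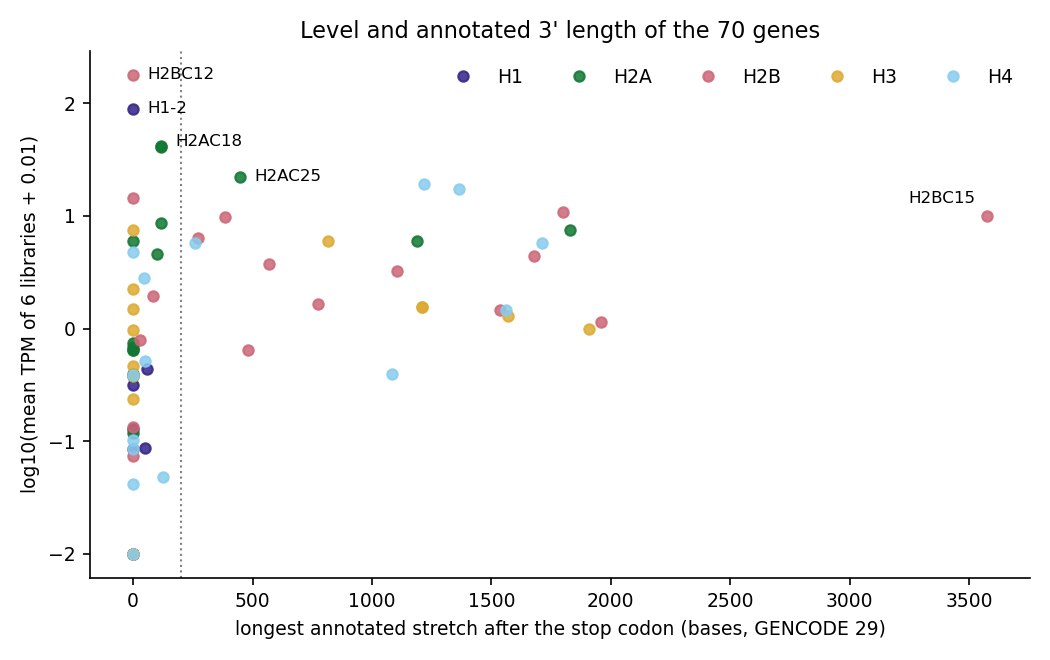
Mean level of each of the 70 genes over 6 libraries, as log10 of TPM plus 0.01, against the longest annotated stretch after its stop codon in bases. Points are coloured by histone class, the dotted line marks 200 bases, and the 25 genes to its right all lie at or above 0.382 TPM while those to its left run from 0 to 178.8 TPM.

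H3 and H2A variant transcripts measured higher in TPM than the replication-dependent genes of their class in every library. The H3 variant genes H3-3A, H3-3B, H3-5 and CENPA together held 28.5 to 40.8 times the TPM of the 13 H3 genes. For H2A the ratio of variants to replication-dependent genes was 7.75 to 9.26. Poly(A) selection captures replication-dependent mRNA poorly. How RNA was selected is not given, and its part in these ratios was not tested.

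The comparison of overexpression with empty vector asks whether histone transcripts differ when the vector carries the long non-coding RNA. None of the 40 tested genes passed edgeR's quasi-likelihood test at a Benjamini-Hochberg adjusted p under 0.05, against 759 of all 13543 genes, or 5.6% (3.57% higher and 2.03% lower). DESeq2 and limma-voom also called 0 of them, against 9.5% and 4.6% of all genes, as did limma on TPM with a pseudocount of 1 or 0.1, against 1.55% and 1.47%, and edgeR with the replicate number as a block, against 1.71%. At an unadjusted p under 0.05, edgeR gave 14 of 40 (35.0%), 11 higher and 3 lower with overexpression, against 23.6% of all genes, 12.3% higher and 11.4% lower. DESeq2 gave 8 of 40, a share near the 21.2% of all genes. The lowest of the 3 libraries of one group lay above the highest of the other for 20 of the 40, 16 higher and 4 lower, against 31.4% of all genes, 15.9% higher and 15.5% lower. The median log2 fold change (overexpression minus empty vector) of the 40 was 0.24, with 29 above 0, against a median of -0.00350 over all genes, 49.2% of which were above 0. The filter used the groups, so a gene could enter the 40 through 1 group alone. A filter on mean CPM that ignored the groups kept 35 of the histone genes, and their median was 0.20. These shares are descriptions, since copies share reads and the genes are not independent.

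**Figure D2:**
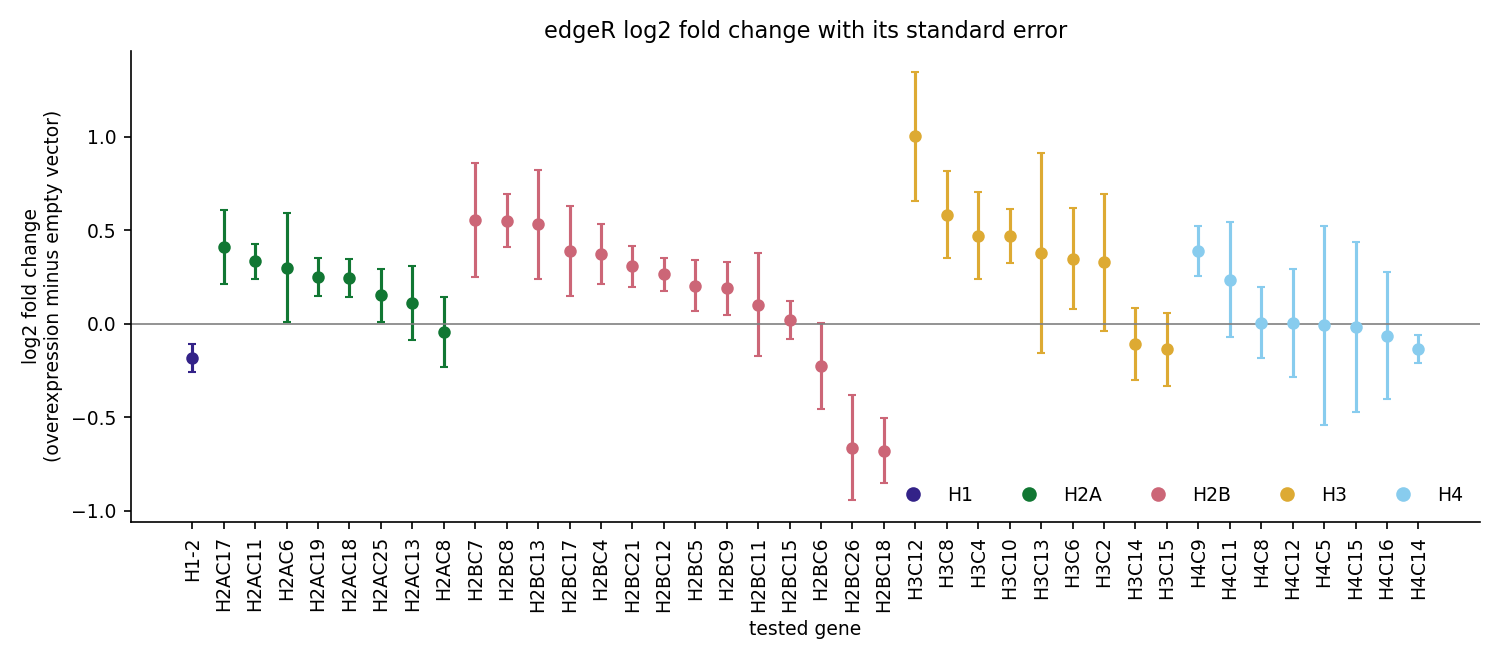
Log2 fold change of overexpression minus empty vector for the 40 tested genes, with edgeR's standard error as bars, ordered by class and size. Values run from -0.68 for H2BC18 to 1.002 for H3C12, and most H2A, H2B and H3 genes lie above 0 while the H4 genes scatter on both sides.

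H1 proteins bind the DNA between nucleosomes. H1-2 (chr6:26055787-26056428, minus strand) measured 28.8, 32.5 and 32.4 CPM with the empty vector and 26.3, 27.3 and 28.7 with overexpression. The groups did not overlap, by a narrow margin, and the log2 fold change was -0.18 ± 0.0742 (SE, edgeR adjusted p = 0.183). H1-2 was the only tested H1 gene.

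H2A forms dimers with H2B at the nucleosome's surface. H2AC18 (chr1:149842188-149842736, minus strand) measured 9.88, 10.97 and 11.5 CPM against 12.1, 14.1 and 12.1 CPM with overexpression, and H2AC19, its copy, followed it in every library. Their log2 fold changes were 0.24 and 0.25 (edgeR adjusted p = 0.196 and 0.188), which amount to 1 observation. H2AC11 (chr6:27133042-27135291, plus strand), with no shared coding stretch of 100 bases, measured 6.93, 8.21 and 7.54 CPM against 9.74, 9.30 and 9.53. The overexpression libraries lay close together and above the empty vector libraries, 0.33 ± 0.0957 higher on the log2 scale (SE, edgeR adjusted p = 0.0866). Of the 8 tested H2A genes 7 had a positive fold change, with a median of 0.25.

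Among the H2B genes, H2BC12 (chr6:27146418-27146798, minus strand) measured 28.1, 32.2 and 34.7 CPM with the empty vector and 36.6, 39.3 and 38.1 with overexpression. The groups did not overlap, and the difference was 0.26 ± 0.0861 on the log2 scale (SE, edgeR adjusted p = 0.117). H2BC21 (chr1:149884459-149886652, minus strand) measured 10.1, 10.9 and 11.6 CPM against 12.1, 15.3 and 12.9, again without overlap, with a log2 fold change of 0.31 (edgeR adjusted p = 0.147). Other genes shared 28.4% of the 100-base coding stretches of H2BC12 and 74.1% of those of 50 bases. For H2BC21 these shares were 19.5% and 52.4%. H2BC8 (chr6:26215159-26216692, minus strand) had one of the 2 smallest p-values of the 40 genes. It measured 1.95, 2.18 and 2.04 CPM with the empty vector and 2.88, 3.25 and 2.91 with overexpression, 0.55 ± 0.141 on the log2 scale (SE, edgeR adjusted p = 0.0628).

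H2BC18 (chr1:149782689-149812373, minus strand) went the other way. It measured 1.73, 1.83 and 1.83 CPM with the empty vector and 1.21, 1.09 and 1.06 with overexpression, or 40 to 78 counts. The groups were well apart, with a difference of -0.68 ± 0.173 on the log2 scale (SE, edgeR adjusted p = 0.0615). Where only genes with 50 counts in 3 libraries were kept, its edgeR adjusted p was 0.0496, and it was then the only one of the 70 genes called, against 6.3% of all genes. Over all alternatives its adjusted p ran from 0.0496 to 0.176. Other genes shared 37.9% of its 100-base coding stretches. Its annotated span overlaps FCGR1A on the other strand, and the strand setting of the counting is not given in the sources used here. H2BC26, also on chromosome 1, was likewise lower, at 2.17, 1.34 and 1.55 CPM against 0.738, 1.25 and 1.22 (log2 fold change -0.66, edgeR adjusted p = 0.204). Of the 14 tested H2B genes 11 were above 0.

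H3 carries many of the tail modifications of chromatin. H3C10 (chr6:27810064-27811300, plus strand) measured 3.56, 3.001 and 2.94 CPM with the empty vector and 4.79, 4.55 and 3.84 with overexpression, a difference of 0.47 ± 0.145 on the log2 scale (SE, edgeR adjusted p = 0.101). H3C8 (chr6:26269405-26271815, minus strand) measured 0.952, 1.31 and 1.63 CPM against 2.05, 2.08 and 1.69, and its groups were separated by a small gap (log2 fold change 0.58, edgeR adjusted p = 0.179). The highest fold change of the 40 genes belonged to H3C12 (chr6:27890382-27893106, minus strand), at 1.002 ± 0.343 (SE, edgeR adjusted p = 0.132), which rested on 7 to 19 counts per library. Its counts were 12, 8 and 7 with the empty vector and 19, 17 and 17 with overexpression. With a minimum count of 10, it passed the filter only through the group where it was higher, so its place among the tested genes lends its fold change no weight. H3C12 measured 0.293, 0.188 and 0.181 CPM against 0.452, 0.432 and 0.450 and overlaps H2AC17 on the same strand. Of the 9 tested H3 genes, the 2 below 0 were the copies H3C14 and H3C15.

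H4 pairs with H3 in the core of the nucleosome, and its genes were split, with 4 of 8 above 0. H4C9 (chr6:27138588-27139881, plus strand) measured 2.93, 3.63 and 3.41 CPM against 4.57, 4.42 and 4.05 with overexpression, a difference of 0.39 ± 0.133 on the log2 scale (SE, edgeR adjusted p = 0.133). H4C14 (chr1:149832659-149839767, plus strand) was lower in each overexpression library, at 12.3, 12.7 and 13.1 CPM against 11.5, 11.9 and 11.3 (log2 fold change -0.14, edgeR adjusted p = 0.327).

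H4C15 (chr1:149854045-149861210, minus strand) varied more between libraries of 1 group than between groups. It measured 10.3, 10.5 and 19.2 CPM with the empty vector and 9.52, 20.9 and 8.97 with overexpression. The third empty vector library and the second overexpression library were near 20 CPM, while the identical copy H4C14 stayed between 11.3 and 13.1 CPM in all 6. The log2 fold change of H4C15 was -0.02 ± 0.455 (SE, edgeR adjusted p = 0.987), and without the third empty vector library it was 0.34. In the deposited TPM the first empty vector library was also high, at 22.8 TPM beside 22.0 and 23.9 in the libraries just named and 10.7 to 12.6 in the others.

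**Figure D3:**
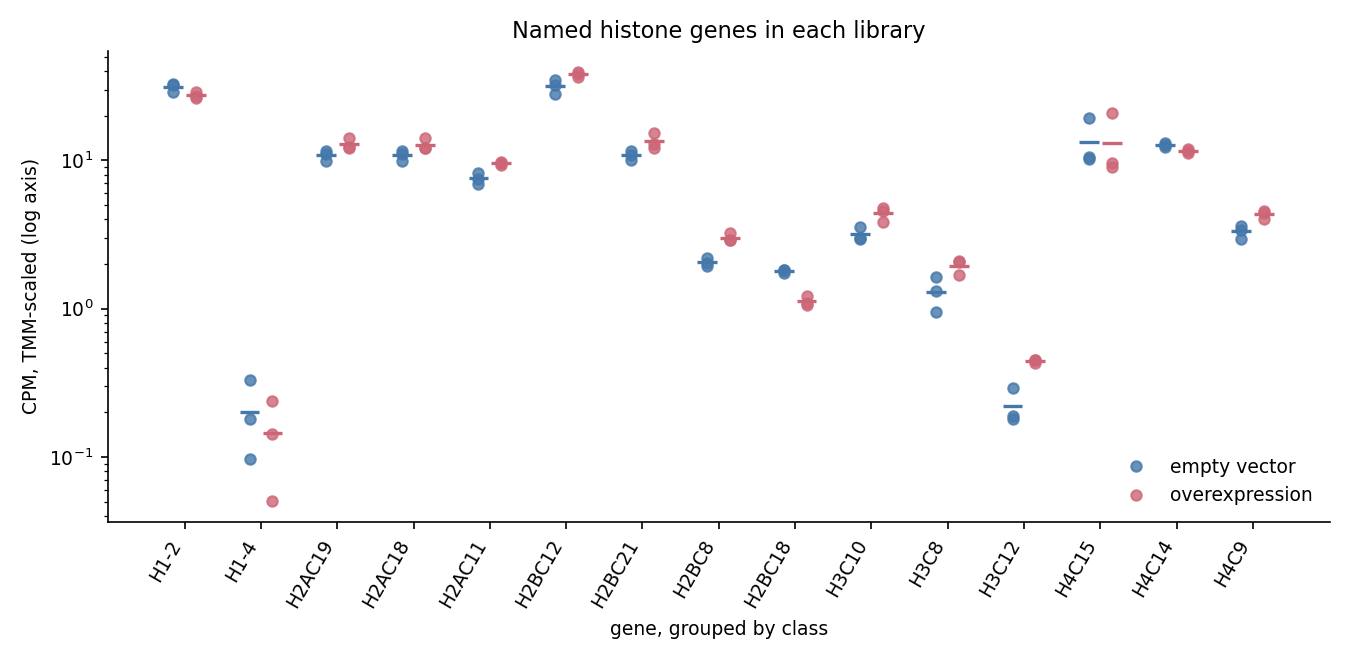
TMM-scaled CPM of the 15 named genes in each library, on a log axis, with empty vector libraries in blue, overexpression libraries in red and a short line at each mean. H2BC8 and H2BC18 show groups well apart in opposite directions, and H4C15 shows 1 library of each group near 20 CPM.

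Summed over all genes of a class, counts differed between classes. H2B summed to 71.8 ± 3.98 CPM (SD, n = 3) with the empty vector and 83.5 ± 3.63 with overexpression, a ratio of 1.16. H2A summed to 48.2 ± 4.80 and 56.8 ± 2.49 CPM, a ratio of 1.18, and H3 to 10.3 ± 0.244 and 12.99 ± 0.492 CPM, a ratio of 1.26. In these 3 classes every overexpression library lay above every empty vector library. H1 summed to 31.6 ± 2.14 and 27.8 ± 1.24 CPM, and H4 to 34.6 ± 5.75 and 34.3 ± 7.86 CPM, with overlapping groups, and H4 followed the 2 high libraries of H4C15. In the deposited TPM the H1 groups did not overlap, at 97.7 ± 4.92 and 83.4 ± 3.75 TPM (SD, n = 3). No p is given for these sums, because the genes were chosen with results of these data known. In bulk samples a different number of cells in S phase and a different amount of histone mRNA per cell cannot be told apart.

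**Figure D4:**
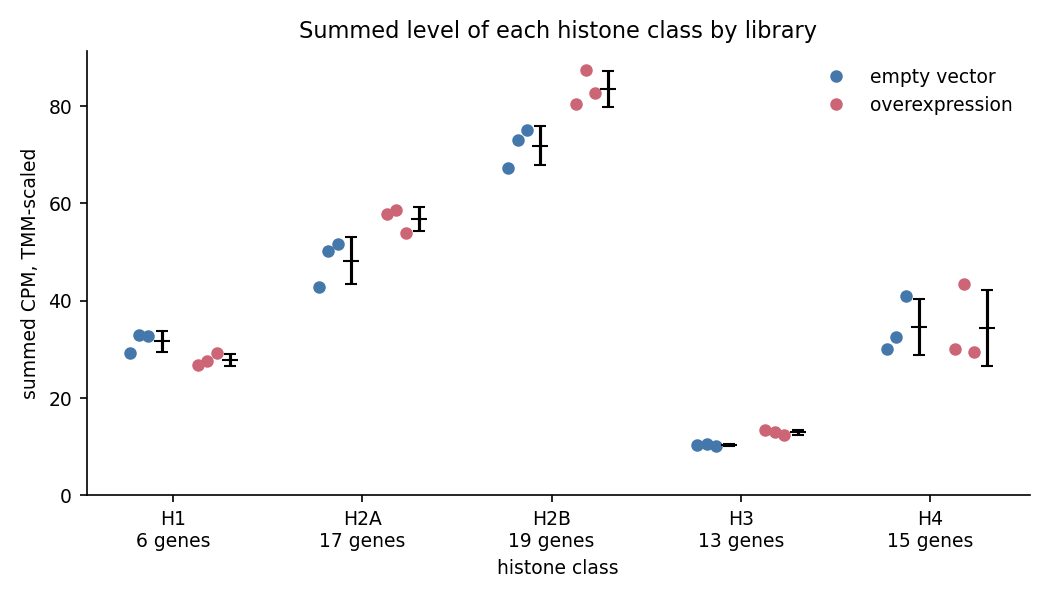
Summed TMM-scaled CPM of each histone class in each library, with the mean and SD of 3 libraries in black. H2A, H2B and H3 have all red overexpression points above all blue empty vector points, and H1 and H4 overlap.

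By location, the 28 tested genes on chromosome 6 had a median log2 fold change of 0.31 and 24 were above 0. The 11 on chromosome 1 had a median of -0.02 and 5 were above 0. They include the identical copies H2AC18 and H2AC19, H3C14 and H3C15, and H4C14 and H4C15, each copy counted by itself. Their median is the value of H4C15, which had an SE of 0.455. On chromosome 6, H4C11 and H4C12 are also identical copies. The difference between the chromosomes was not tested.

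Many H2A and H2B genes start head to head. Within 500 bases, 12 such pairs of genes were annotated, 11 of an H2A and an H2B gene, with starts 219 to 357 bases apart. Of the 10 H2A and H2B pairs with a level above 0, H2B was higher in 5. The levels within a pair often differed: H2BC12 held 178.8 TPM and its partner H2AC12 0.632 TPM, and H2AC25 held 22.3 TPM and its partner H2BC26 1.14 TPM. H2BC4 and H2AC6 were close, at 6.37 and 5.93 TPM. The partners H2AC25 and H2BC26 had log2 fold changes of 0.15 and -0.66, and the partners H2AC17 and H2BC17 had 0.41 and 0.39. H2AC17 shares 84.0% of its 100-base coding stretches with H3C12, which overlaps it on the same strand, so its value is uncertain.

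**Figure D5:**
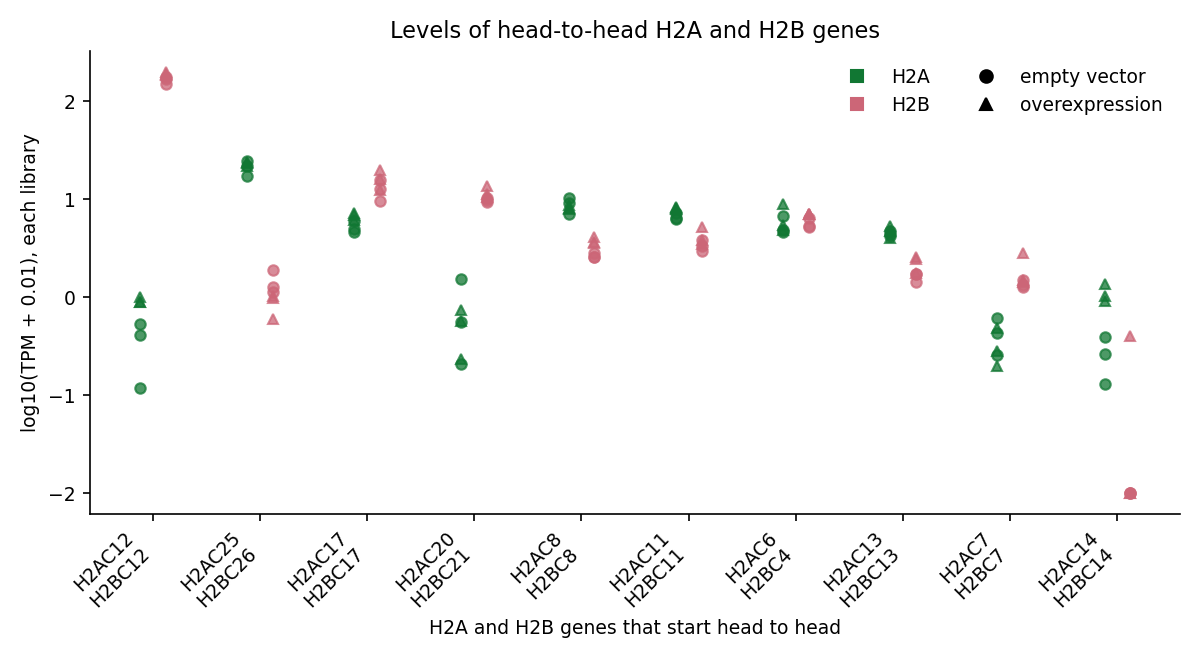
Level of each gene of 10 head-to-head pairs of H2A (green) and H2B (pink) genes, as log10 of TPM plus 0.01, in the empty vector (circles) and overexpression (triangles) libraries. Partners such as H2AC12 and H2BC12 lie over 2 units of log10 apart while H2AC6 and H2BC4 overlap.

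The promoters of these genes share motifs that a script searched on both strands, in the 250 bases before to 50 after the start of RefSeq's GRCh38.p14 promoter table, which matched 64 of the 70 genes. The octamer ATTTGCAT was found in 14 of 18 H2B and 11 of 16 H2A promoters, against 1.77% of all 35116 promoters of that length, and in 1 of 11 H3, 0 of 6 H1 and 0 of 13 H4 promoters. CCAAT was in 54 of 64 (84.4%, against 34.6% of all promoters) and TATAAA in 42 of 64 (65.6%, against 11.5%). Every H1, H2A, H2B and H3 promoter held CCAAT, but only 3 of 13 H4 promoters did (23.1%, below the share of all promoters). A match is a description of these letters only. The 90 bases upstream of H2B genes with values above are given with the octamer in capitals. H2BC12, H2BC8 and H2BC21, higher in value with overexpression, and H2BC18, lower in value, hold it. H2BC26, also lower in value, does not. None of these genes passed the main edgeR test, and a link between the motif and the direction was not tested.
H2BC12, chr6:27146859-27146948, minus strand: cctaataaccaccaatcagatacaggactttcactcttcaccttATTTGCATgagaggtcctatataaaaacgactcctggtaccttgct
H2BC8, chr6:26216689-26216778, minus strand: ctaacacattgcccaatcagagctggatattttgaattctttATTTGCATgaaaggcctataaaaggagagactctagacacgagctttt
H2BC21, chr1:149886683-149886772, minus strand: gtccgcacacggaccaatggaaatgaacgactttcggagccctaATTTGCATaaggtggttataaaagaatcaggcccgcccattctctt
H2BC18, chr1:149812371-149812460, minus strand: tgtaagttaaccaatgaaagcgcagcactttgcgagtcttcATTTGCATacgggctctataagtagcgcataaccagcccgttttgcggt
H2BC26, chr1:228458013-228458102, plus strand: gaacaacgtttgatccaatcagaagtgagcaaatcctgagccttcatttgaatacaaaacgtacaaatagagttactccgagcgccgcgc

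Genes around the histone pathway were read from lists fixed with earlier results known. Of 47 tested S phase genes 10 passed the edgeR test, 9 higher and 1 lower, against 3.57% and 2.03% of all genes, and the list's median log2 fold change was 0.09. The 9 were MCM2, MCM3 and MCM5 of the replicative helicase, the licensing factor CDT1, thymidylate synthase TYMS, the flap nuclease FEN1, the polymerase subunits POLD1 and POLD3, and the transcription factor E2F1. TYMS rose from 113 ± 2.16 to 147 ± 3.98 CPM (SD, n = 3, log2 fold change 0.38, edgeR adjusted p = 0.00656), and RAD51AP1, which acts in recombination, was the gene that fell. With 1 library left out, the calls of MCM2 and E2F1 were lost in all 6 fits and those of the others but TYMS in at least 1. Summed over the list, S phase genes measured 5679 ± 64.9 CPM and 6318 ± 163 CPM, with no overlap. Of 20 tested mitosis genes, PLK1, a mitotic kinase, alone passed, a share near the 5.6% of all genes, and its call was lost in all 6 fits without 1 library. The list's median was 0.04. The genes with the highest CPM of that list, TOP2A and MKI67, had log2 fold changes of 0.02 and 0.09 (edgeR adjusted p = 0.811 and 0.677). MCM7, the S phase gene among the highest that did not pass, had 0.19 (edgeR adjusted p = 0.0582).

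Of the 25 genes for histone mRNA processing and transcription 3 passed, UPF1 and E2F1 higher and GON4L lower, at a median of -0.01, where 5.6% of all genes passed. SLBP (log2 fold change 0.13, edgeR adjusted p = 0.388) and NPAT (-0.12, edgeR adjusted p = 0.344) did not, nor did SYMPK, a scaffold of the cleavage complex (0.15, edgeR adjusted p = 0.0692). Of 24 histone chaperone genes 2 passed, ASF1B and MCM2, a share near that of all genes, and the median was 0.06. SSRP1, a subunit of the chaperone FACT, had 0.13 (edgeR adjusted p = 0.0909). Of 10 tested histone variant genes only H1-10 passed, against 5.6% of all genes, from 169 ± 9.64 to 223 ± 6.67 CPM (SD, n = 3, log2 fold change 0.40, edgeR adjusted p = 0.00991), and H3-3B was -0.16 (edgeR adjusted p = 0.173). H2AX was 0.17, H2AZ1 0.16 and H3-3A 0.12 on the log2 scale (edgeR adjusted p = 0.137, 0.216 and 0.183). Without 1 library, UPF1 lost its call in all 6 fits, ASF1B in 5, and GON4L in the fit without the third overexpression library.

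Markers of other cell types also moved with the groups. The summed level of 7 fibroblast markers, mostly COL1A1 and PDGFRB with LUM at 0, was 112 to 122 CPM with the empty vector and 154 to 159 with overexpression. The 5 immune markers, mostly CD68 with PTPRC and CD3E at 0, summed to 34.7 to 36.5 and 22.2 to 26.2 CPM. The 4 endothelial markers, with KDR at 0, summed to 8.11 to 8.65 and 7.12 to 9.02 CPM. Their part in the histone values, and that of the S phase genes, was not tested.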

How the data were processed

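Total RNA of 6 libraries was sequenced, and the submitters' processing notes list Trimmomatic 0.36, HISAT2, the build GRCh38, featureCounts, Subread 1.5.1 and DESeq. Gene counts were deposited as whole numbers with no normalization. The deposited TPM values were made by the authors with a tool that is not given in the sources used here, and served for levels and alternative fits. The annotation release, strand setting and handling of multi-mapped reads are not given there either.

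Symbols came from a gene name table for 66 of the 70 genes, and for H2AC18, H2AC19, H3C2 and H3C3 from GENCODE release 29 names and RefSeq synonyms. Positions, coding sequences and 3′ ends are from GENCODE release 29. All table columns were matched to libraries.

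Counts were tested in R 4.3.3 with edgeR 4.0.16: filterByExpr (minimum count 10, minimum total 15) kept 13543 genes, TMM scaled them, and a robust quasi-likelihood fit with group as its only term was adjusted by Benjamini-Hochberg over all genes and called under 0.05. The SE is the size of the log2 fold change divided by the square root of F. Alternatives included DESeq2 1.42.0, limma 3.58.1 on voom values and on log2(TPM + 1 or 0.1), other scalings and filters, and leaving out each library. The fits were tested on simulated counts. The replicates differed by more than sampling noise.

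Named were the 2 genes of each class with the highest mean CPM and the 10 tested genes with the smallest p, and of the other lists the called genes, the 2 highest and SLBP, NPAT, H2AZ1, H2AX and H3-3B. Any other gene was named with its values in view. The members and lists were chosen with earlier results of these data known. Some genes of these lists are not reported here.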

Additional observations from a re-analysis of the deposited data

How the results depend on the processing

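The count of histone genes called was 0 under every alternative run except the filter of 50 counts in 3 libraries, where it was 1 (H2BC18), and 0 in all 6 fits without 1 library. The number of all genes called was 1287 with DESeq2, 210 and 199 on TPM with pseudocounts of 1 and 0.1, and 193 to 458 without 1 library. The median log2 fold change of the tested histone genes was 0.19 with no count filter, 0.18 on TPM with a pseudocount of 1, and 0.17 to 0.27 without 1 library. On TPM with pseudocounts of 1 and 0.1, the medians were 0.0425 and 0.0426 for histone variants, -0.0579 and -0.0584 for processing genes, 0.0236 and 0.0238 for chaperones, 0.0447 and 0.0452 for S phase genes and -0.0068 and -0.0069 for mitosis genes. For S phase genes the median was 0.0570 with library size only and 0.0862 to 0.14 without 1 library. Without 1 library the processing genes' median ran from -0.0533 to 0.0305. The H3 sum had a log2 ratio of 0.39 with identical copies counted once, an alternative chosen after seeing the data, and the H4 sum ran from -0.21 to 0.13 without 1 library. H4C15 changed sign to 0.34 without the third empty vector library, 0.17 without the first and 0.19 without the third overexpression library, within a range of -0.52 to 0.34. MKI67 ran from -0.0029 without the third empty vector library to 0.21. TOP2A was -0.0083 with library size only, -0.0204 and -0.0205 on TPM with pseudocounts of 1 and 0.1, and -0.0118 to 0.0530 without 1 library, the lowest without the third empty vector library, with -0.0029 without the second overexpression library. DESeq2 called MCM7 and SYMPK, at 0.19 and 0.15. The cause was not tested. Few counts limit what can be said of the 30 untested genes and of tested genes such as H3C12, and the part of depth in this was not tested.

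Same-numbered libraries correlated at 0.0367, 0.0547 and 0.0449 in their deviations from the group means, each best with its own number, which is a hint from the data and not the design, so the labels' numbers were not taken as pairs. With a replicate block 232 genes were called, 0 of them among the histone genes.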
